A study of Arabidopsis thaliana with 44 samples.

Results

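The regions described here are the stretches enriched for trimethylated lysine 27 of histone H3 (H3K27me3) or for the histone variant H2A.Z around the 5 centromeres of Arabidopsis thaliana. They were chosen by position alone: every region of the 12 deposited mutant-against-WT region tables that lies wholly within chromosome 1 from 12500 to 17500 kb, chromosome 2 from 2000 to 6500 kb, chromosome 3 from 11500 to 16000 kb, chromosome 4 from 2000 to 6000 kb or chromosome 5 from 9500 to 14500 kb of the TAIR10 build. These windows span 23 Mb and hold 9581 of the 131416 listed regions. A further 55 regions touch the insertion of mitochondrial DNA on chromosome 2, between 3200 and 3550 kb, and are given separately because their DNA is nearly the same as that of the mitochondrial genome, so that reads there can come from either.

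The study compared shoots of 3-week-old soil-grown plants, kept under 16 h of light, of pie1-5, clf-28 and pkl-1 mutants and of WT, by chromatin immunoprecipitation with sequencing for both marks and by RNA-seq. The 3 mutants are lines carrying 1 mutant allele each, of PKL, CLF or PIE1, and no group received a treatment. Each mutant has 2 chromatin libraries per mark and 3 RNA libraries, and the sources used here do not say how many plants went into a library or whether replicates were grown separately. P-values therefore measure the spread between these libraries, which may be technical.

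In plants, as in animals, H3K27me3 is placed by Polycomb complexes on genes that are kept silent, and CLF is 1 of the histone methyltransferases that write it. PKL is a chromatin remodelling ATPase of the CHD3 family linked to H3K27me3 at many loci, and PIE1 is the ATPase of the complex that exchanges H2A for H2A.Z. Pericentromeric DNA is rich in transposons and pseudogenes, and is largely packed by DNA methylation and methylation of lysine 9 of histone H3; H2A.Z and DNA methylation are known to occupy different DNA in this plant.

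Library sizes, recovered from the deposited counts and RPM (reads scaled to library size), ran from 3174679 to 19228746 reads for H3K27me3 and from 7619268 to 19323803 for H2A.Z. All 6 H3K27me3 tables carry the same WT library of 13589567 reads, so each H3K27me3 comparison set 2 mutant libraries against 1 WT library, and the spread was measured between the mutant libraries. The RNA libraries held 21588609 to 33057306 reads assigned to genes. Among the mutated genes, PIE1 transcripts measured 3.735, 3.949 and 5.693 counts scaled to library size (CPM) in pie1-5 against 8.101, 6.856 and 10.06 in WT, whereas CLF read 23.64, 22.82 and 34.15 CPM in clf-28 against 3.038, 5.992 and 2.725, and PKL read 29.02, 29.31 and 35.2 CPM in pkl-1 against 17.7, 15.16 and 17.67. The labels do not describe the alleles, so a raised transcript does not check them. The shoot markers RBCS1A and CAB1 lay between 3266 and 5712 CPM in every library, and the root-hair genes RHD6 and SHV2 and the pollen gene VGD1 between 0 and 0.283 CPM. PYK10, a root glucosidase, measured 22.39 to 35.46 CPM in WT, 51.23 to 56.27 in pkl-1 and 56.08 to 69.8 in pie1-5, and the part of root tissue in the results below was not tested.

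Regions of both marks were fewer per Mb towards the centromeres. In the first pkl-1 table, H3K27me3 regions numbered 1.8 per Mb within 0.5 Mb of the window centres and 41 per Mb at 2 to 2.5 Mb, and H2A.Z regions 7.4 and 59.67 per Mb. The second pie1-5 table gave 2 and 44.33 H3K27me3 regions per Mb at the same distances, and 8.2 and 103.7 H2A.Z regions per Mb. The number per Mb was higher in the outermost bin than in the innermost in all 12 tables, with 1.6 to 36.4 H3K27me3 regions per Mb in the innermost bin against 39.67 to 62.67 in the outermost, and 7.4 to 69 against 59.67 to 109 for H2A.Z. The innermost values of 36.4 and 69 came from the second clf-28 H3K27me3 table and the first pie1-5 H2A.Z table, and without them the innermost bin held at most 5.8 H3K27me3 and 9.8 H2A.Z regions per Mb. The share of DNA covered was likewise lower in the innermost bin than in the outermost in 11 tables, but in the first pie1-5 H2A.Z table regions covered 39.69% of the innermost bin and 17.39% of the outermost.

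**Figure D1:**
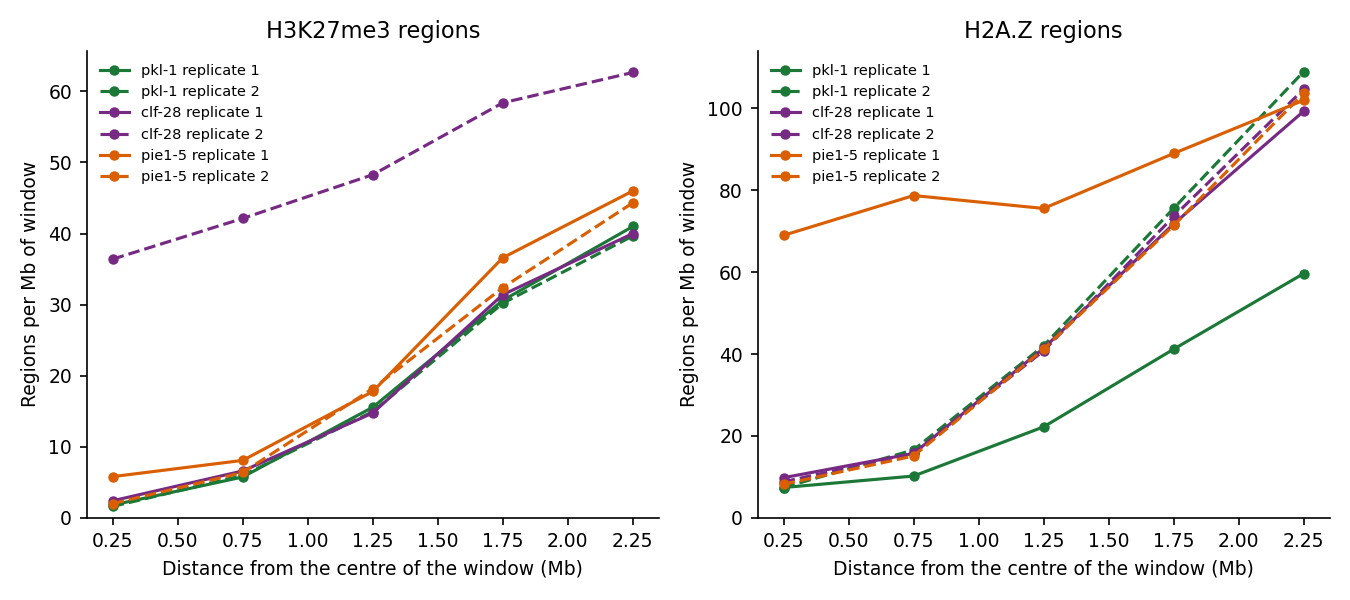
Number of regions per Mb (y axis) against distance from the centre of the window in Mb (x axis), 1 line per deposited table, for H3K27me3 and H2A.Z. All 12 lines end higher than they start, and 11 rise at every step, while the first pie1-5 H2A.Z line dips once, from 78.72 to 75.56; the second clf-28 H3K27me3 table starts at 36.4 and the first pie1-5 H2A.Z table at 69 regions per Mb, where the remaining tables start at 5.8 or less and at 9.8 or less.

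These regions sat mostly on the protein-coding genes of a gene-poor landscape. RefSeq places 5443 genes in the windows, of which 54.03% are pseudogenes and 31.14% are protein coding, against 72.41% protein coding among all nuclear genes. Of the 550 genes with at least 50% of their length in a paired H3K27me3 region, 59.27% were protein coding, and of the 814 genes likewise covered by a paired H2A.Z region, 63.51%. Median widths were 1800 to 2800 bp for H3K27me3 and 1200 to 2000 bp for H2A.Z.

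Of the H3K27me3 regions found in both tables of a mutant, the widest 2 loci by mean width covered AGL79 and KNAT1. Single tables held wider ones, of up to 69200 bp in the first pie1-5 table and 37400 bp in the second clf-28 table. A stretch at chr3:11900001-11920600 covers AGL79, a MADS-box transcription factor gene, and carried 23.1 RPM per kb in WT; pkl-1 read 21.27 and 15.71, clf-28 read 8.406 and 7.071 over a slightly shorter stretch on which WT had 24.27. In pie1-5 the first table listed 29600 bp at 22.69 against 19.13 in WT, and the second library read 32.63. Both pkl-1 and both clf-28 libraries thus lay below WT at AGL79 and both pie1-5 libraries above it. A stretch at chr4:5144201-5162200 covers KNAT1, a homeobox gene of the shoot meristem. It carried 26.23 RPM per kb in WT, 14.42 and 15.52 in pkl-1, 13.32 and 5.617 in clf-28 and 25.53 and 20.3 in pie1-5. Both pkl-1 and both clf-28 libraries were below WT at KNAT1, and the pkl-1 change passed the test (log2 fold change -0.81 ± 0.16 SE, edgeR quasi-likelihood adjusted p 1.139e-05), a change that came to 0.00 when libraries were scaled by TMM.

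The third locus by width, chr1:16808001-16824200, holds AT1G44180 and other genes. WT carried 41.72 RPM per kb there, pkl-1 24.17 and 26.05 (log2 fold change -0.74 ± 0.15, edgeR adjusted p 6.533e-06; 0.9616 with TMM) and clf-28 24.96 and 12.46 over a slightly shorter stretch. The pie1-5 libraries read 32.25 and 38.29 where WT had 37.22 and 41.72 over their stretches. All 6 mutant libraries were below WT at this locus, by the least in pie1-5.

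A wide H2A.Z region covers CALS5, the callose synthase of the pollen wall, at chr2:5692201-5706600. In pkl-1 it carried 20.24 and 17.76 RPM per kb against 20.21 and 18.62 in WT. Over chr2:5693801-5706400, clf-28 read 15.88 and 18.37 and pie1-5 10.24 and 13.43, against 20.45 and 19.73 in WT. Both pie1-5 libraries lay below both WT libraries there, with an edgeR adjusted p of 0.2758.

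Several libraries stood apart in the windows. In the second clf-28 H3K27me3 library, the smallest of all at 3174679 reads, 1099 regions were listed where the first had 393, and they held 19.47% of its reads against 6.65% of the WT reads. Of these, 720 touched no region of the first clf-28 table, and covered 1774.2 kb at 20.53 RPM per kb where WT had 3.101. All 720 were higher than WT. Both clf-28 tables carry the same WT library, so these regions were listed through the mutant library. Their excess over WT follows from that selection. In the first pie1-5 H2A.Z library 1840 regions were listed where the second had 984, and they held 25% of its reads against 6.212% in WT.

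Of those 1840, 939 touched no region of the second pie1-5 table; they covered 3931.2 kb at 15.21 RPM per kb against 1.801 in WT, and 879 were higher than WT. The first pie1-5 H3K27me3 library had 114 such regions over 517.6 kb at 15.67 against 6.525 RPM per kb. Of the 939 and the 720, 251 (26.73%) and 236 (32.78%) overlapped each other. In the first clf-28 H2A.Z library, 985 listed regions held 11.2% of its reads against 5.189% of the WT reads. In the second, 1002 regions held 2.885% against 3.127%. The excess over WT in the pie1-5 regions of 1 table alone was likewise set, at least in part, by how they were listed. Regions found in 1 table alone enter none of the tests below.

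**Figure D2:**
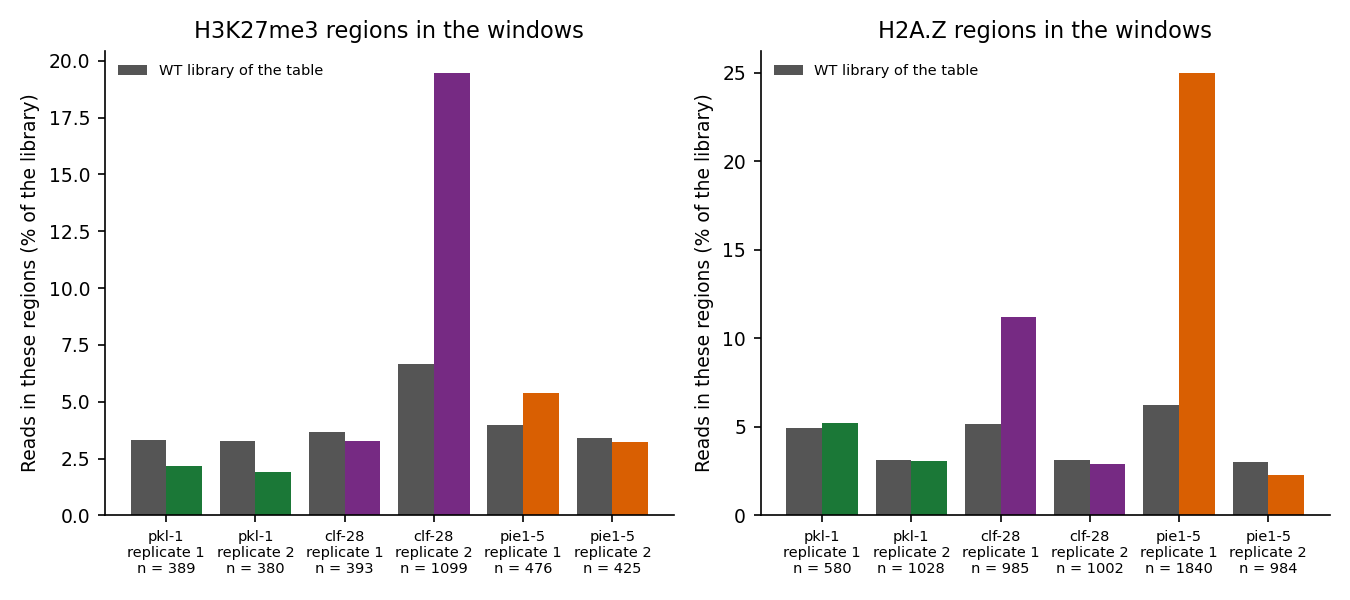
Percentage of all reads of a library that fall in the pericentromeric regions of its table, mutant beside the WT library of the same table, for each mark, mutant and replicate. The second clf-28 H3K27me3 library (19.47%) and the first pie1-5 H2A.Z library (25%) are highest. In the other replicate of each the mutant share was 3.28% and 2.276%. The first clf-28 H2A.Z library came next at 11.2%, beside 2.885% in the second.

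For the tests, regions of the 2 tables of a mutant were paired where they overlapped by at least 50% of the shorter, and the fit ran on all pairs in the genome with library totals and region widths as offsets. H3K27me3 in pkl-1 was lower than in WT across the pericentromeric regions, with a median log2 fold change of -0.69 over 359 pairs against -0.80 over 4977 pairs elsewhere. Of these 359, 139 were called lower and 2 higher at an adjusted p under 0.05, which is 38.72% and 0.557% where all pairs in the genome gave 50.8% and 0.206%. Read ratios in both pkl-1 tables were under 1 for 88.02% of the pericentromeric pairs, against 92.8% of all pairs.

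Scaling by TMM, which sets most regions to no change, moved the pericentromeric median to 0.10 and left 0 of the 139 calls, so the fall is one relative to library totals. In a joint fit of all 3 mutants on merged regions, 0 of 339 pericentromeric regions were called for pkl-1, as were 0 of all 5021. The authors' deposited table, which tests the reads of 1 mutant library against 1 WT library, has 295 of the 359 lower and 7 higher in both tables at an FDR under 0.05, or 82.17% lower against 89.2% over all pairs, and 1.95% higher against 0.749%.

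Calls in pkl-1 grew with the width of the region, as they did elsewhere in the genome. Among pericentromeric pairs under 2 kb, 11 of 133 (8.271%) were called lower, among those of 2 to 4 kb 48 of 121 (39.67%), and among those of 4 kb or more 80 of 105 (76.19%), beside 18.67%, 46.84% and 86.34% elsewhere. The median log2 fold change went from -0.52 in the narrowest class to -0.76 in the widest. By chromosome the called share ran from 32.69% on chromosome 2 to 46.88% on chromosome 1.

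The largest pkl-1 fall, and the largest in clf-28 and in pie1-5 too, was at chr1:13603001-13605800, where the annotation places no gene. WT carried 21.1 RPM per kb, and the mutants read 5.033 and 4.718 in pkl-1, 3.883 and 1.687 in clf-28 and 6.507 and 4.032 in pie1-5. All 6 mutant libraries were far below the single WT library, which the 3 comparisons share, with ratios of 0.07996 to 0.3084. The log2 fold change was -2.11 ± 0.43 in pkl-1 (edgeR adjusted p 1.204e-05; 0.187 with TMM), -2.91 ± 1.43 in clf-28 (0.9317) and -2.0 ± 0.85 in pie1-5 (0.996).

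Next in pkl-1 came chr4:2753401-2756800, on the protein-coding gene AT4G05430, with 8.841 and 10.25 RPM per kb against 29.0 in WT (log2 fold change -1.61 ± 0.35, edgeR adjusted p 3.943e-05; 0.4425 with TMM). The third was chr5:10187801-10188800 on AT5G28210, with 6.761 and 5.963 against 16.34 RPM per kb (-1.36 ± 0.51, edgeR adjusted p 0.02074; 0.8295 with TMM). At both loci the pair of pkl-1 libraries differed from each other by far less than from WT.

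Both pericentromeric H3K27me3 rises called in pkl-1 were short regions on pseudogenes. At chr5:11765801-11766000, which spans the transcribed pseudogene AT5G31909, pkl-1 read 106.4 and 156.0 RPM per kb against 52.61 in WT (log2 fold change 1.31 ± 0.52, edgeR adjusted p 0.02586; 0.1103 with TMM). The other, at chr2:2937601-2938400 on the pseudogene AT2G07080, was listed as 200 bp in the first table and 800 bp in the second. Its within-table ratios to WT were 2.4 and 3.658, on 146 and 179 pkl-1 reads (edgeR adjusted p 0.004935; 0.07851 with TMM).

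H3K27me3 in clf-28 was lower by a median of -0.92 on the log2 scale over 374 pericentromeric pairs, and by -0.92 elsewhere, with no pair called (0 of 374, and 0% of all pairs in the genome). The clf-28 libraries disagreed in size, with median log2 ratios of -0.50 and -1.70, and 1 pair reached an unadjusted p under 0.05 by edgeR, as did 3 of all 5441; DESeq2 called 0. Ratios were under 1 in both tables for 76.47% of the pairs, against 75.2% of all pairs. With TMM the median was -0.04 and 7 pairs were called higher, or 1.872% where 0.423% of all pairs were. The authors' deposited table has 28 pairs higher and 255 lower in both tables at an FDR under 0.05, or 7.487% and 68.18%, beside 4.58% and 69% over all pairs.

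The median clf-28 log2 fold change was -0.55 within 1 Mb of the window centres and -1.05 at 2 to 2.5 Mb. The largest clf-28 falls after the gene-free one on chromosome 1 were chr1:17093001-17095400, on the long non-coding RNA gene AT1G07297, at 5.631 and 3.544 RPM per kb against 29.83, and chr1:17377601-17394800 at 11.41 and 6.117 against 38.41. That wide stretch holds AT1G47395, whose transcript is described below. Neither fall was called (edgeR adjusted p 0.9317 for both).

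Among pairs with 100 reads or more, the 3 largest clf-28 rises lay within 1 Mb of the window centres, on pseudogenes, and each joined a short region of the first table to a wide one of the second. At the AT5G31909 locus the clf-28 ratios to WT were 2.332 over 400 bp and 6.696 over 15000 bp. At chr2:5099801-5111400, which holds AT2G12510 and 3 more pseudogenes, they were 1.91 over 800 bp and 5.63 over 11600 bp. At AT4G06597, a transcribed pseudogene, they were 2.298 over 800 bp and 4.127 over 5800 bp.

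None of the 3 rises passed the test with library totals (edgeR adjusted p 0.9317 for each). With TMM all 3 did, with adjusted p-values of 2.425e-06, 0.000127 and 0.0002043. The highest WT H3K27me3 signal of the windows lay at chr4:3950401-3956000, next to the pseudogene AT4G06700. There clf-28 carried 1733.7 and 2022.2 RPM per kb and WT 622.3 (edgeR adjusted p 0.9317; 0.4185 with TMM), where the median pericentromeric pair held 20.75 RPM per kb in WT.

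H3K27me3 in pie1-5 had a median log2 fold change of -0.15 over 358 pericentromeric pairs and -0.33 elsewhere. The 2 pie1-5 libraries gave median log2 ratios of -0.26 and -0.07, beside -0.45 and -0.20 over all pairs. TMM turned the pericentromeric median to 0.18. No pericentromeric pair was called (0 of 358; over all pairs 0.0193% were called higher and 0% lower), 8 (2.235%) reached an unadjusted p under 0.05 by edgeR against 1.892% of all, and DESeq2 called 1 higher, or 0.2793% against 0.0386%. Ratios were under 1 in both tables for 40.5% of the pericentromeric pairs against 60.7% of all pairs, and above 1 in both for 18.99% against 6.08%. The authors' deposited table has 51 pairs higher in both tables and 117 lower at an FDR under 0.05, or 14.25% and 32.68%, beside 4.05% and 51.1% over all pairs.

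Pairs whose regions agree in extent showed less of this gap between the windows and the rest: with an overlap of at least 80% of the longer region, the pericentromeric median was -0.31 over 212 pairs and that of all pairs -0.37. The largest pie1-5 rise was at chr1:15642601-15648800, on the pseudogene AT1G41870, with 19.98 and 24.76 RPM per kb against 4.474 and 5.151 for WT over the 2 stretches. Both pie1-5 libraries were more than 4 times the WT value there (ratios 4.465 and 4.808), but the adjusted p was 0.5572 by edgeR and 0.00992 by DESeq2.

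**Figure D3:**
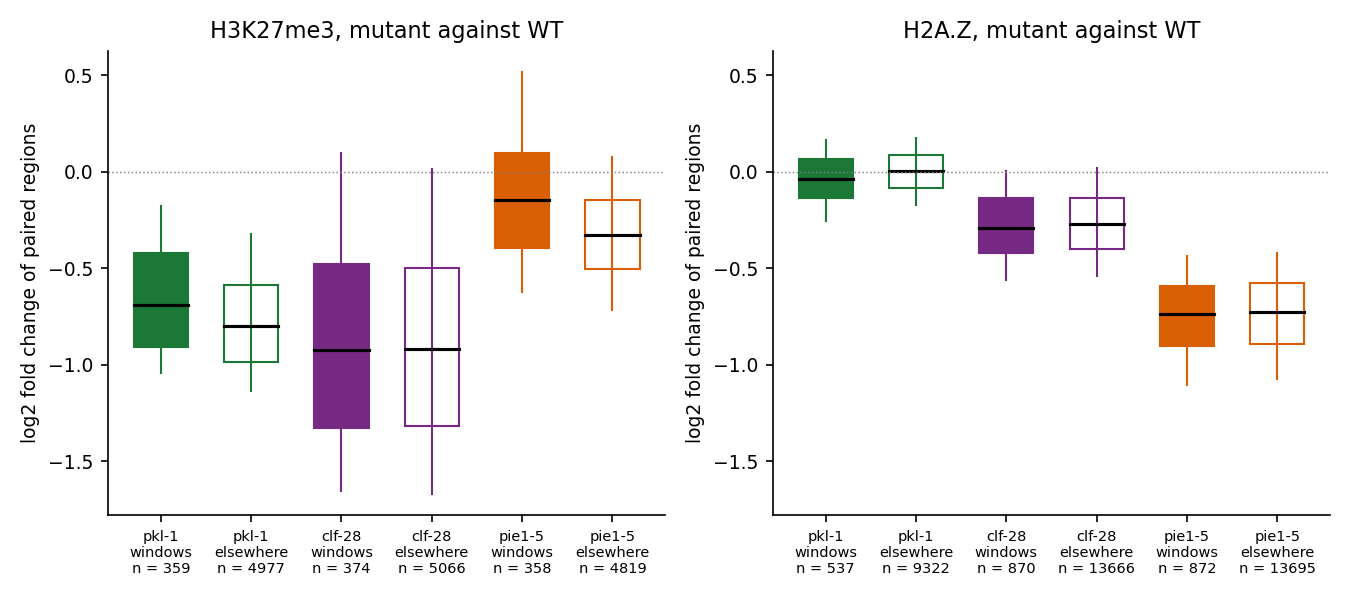
Log2 fold changes of mutant over WT for paired pericentromeric regions beside paired regions elsewhere in the genome, for each mark and mutant, with medians and the spread of the middle of each distribution. Pericentromeric medians were -0.69, -0.92 and -0.15 for H3K27me3 in pkl-1, clf-28 and pie1-5, and -0.03, -0.29 and -0.74 for H2A.Z, close to those elsewhere except for H3K27me3 in pie1-5 (-0.33 elsewhere).

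H2A.Z in pkl-1 stayed near the WT level, with a median log2 fold change of -0.03 over 537 pericentromeric pairs and 0.00 elsewhere. No pericentromeric pair was called by edgeR (0 of 537; over all pairs 0.0101% were called lower and 0% higher), 35 (6.518%) reached an unadjusted p under 0.05 against 3.57% of all, and DESeq2 called 2 higher, or 0.3724% against 0.101%. With a block for the replicate number, to which the labels give no meaning, edgeR called 5 higher and 6 lower. The block called 73 and 56 of all 9861 pairs. Ratios were under 1 in both tables for 40.78% of the pairs against 29.3% of all. The authors' deposited table has 31 higher (5.773%, against 7.57%) and 77 lower (14.34%, against 9.49%) in both tables. The largest rise was at chr1:17342001-17343600, on AT1G47310, with 14.76 and 15.41 RPM per kb against 6.065 and 7.019. Both pkl-1 libraries exceeded both WT libraries by more than the spread within either genotype there, yet the edgeR adjusted p was 0.5798 (DESeq2 0.008162).

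H2A.Z in clf-28 was lower by a median of -0.29 over 870 pericentromeric pairs and by -0.27 elsewhere. None was called by edgeR (0 of 870, and 0% of all pairs), 102 (11.72%) reached an unadjusted p under 0.05 against 11.65% of all, and DESeq2 called 1 higher, or 0.1149% against 0.0138%. Ratios for 66.67% of the pairs were under WT in both tables, against 65.4% of all. The 2 clf-28 libraries gave median log2 ratios of -0.43 and -0.16, beside -0.43 and -0.14 over all pairs. The authors' deposited table has 2 higher (0.2299%, against 0.199%) and 437 lower (50.23%, against 50.5%) in both tables. The largest falls included chr3:15195401-15196200 on TES, a kinesin gene needed for cytokinesis in pollen development. There clf-28 read 6.094 and 8.039 RPM per kb against 17.4 and 16.56 in WT (edgeR adjusted p 0.405).

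H2A.Z in pie1-5 showed the largest shift of this mark, a median log2 fold change of -0.74 over 872 pericentromeric pairs and -0.73 elsewhere. Ratios were under 1 in both tables for 94.72% of the pericentromeric pairs, against 93.4% of all. The 2 pie1-5 libraries differed in size, with medians of -1.12 and -0.44, and no pair was called lower by edgeR (0 of 872, and 0% of all pairs), although the authors' deposited table has 777 of the 872 lower in both tables at an FDR under 0.05, or 89.11% against 87.6%, and 5 higher, or 0.5734% against 0.0824%. Scaling by TMM moved the pericentromeric median to 0.02, and that of clf-28 H2A.Z to -0.01.

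Against this fall, 2 pericentromeric pairs were called higher in pie1-5, or 0.2294% where all pairs gave 0.0206%, and both lay on pseudogenes. At chr4:5267801-5268400, on AT4G08340, pie1-5 read 106.5 and 122.2 RPM per kb and WT 11.8 and 13.45 (log2 fold change 3.18 ± 0.53, edgeR adjusted p 1.693e-05). The second lay at chr5:11752601-11784600, around AT5G31909, where pie1-5 read 23.87 over 32000 bp and 38.47 over 600 bp against 2.303 and 5.175 in WT (3.14 ± 0.48, edgeR adjusted p 1.155e-06). Both pairs join regions of unequal width, and neither enters the fit limited to pairs that overlap by at least 80% of the longer region.

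The locus of AT5G31909 thus read above WT in each mutant for at least 1 mark. In clf-28 its H2A.Z was 84.22 and 45.94 RPM per kb over chr5:11765401-11766000 against 11.98 and 12.68 in WT (edgeR adjusted p 0.405). The H3K27me3 values there were those given above for pkl-1 and clf-28. The comparisons of 1 mark share WT libraries, so these rises are not independent of each other.

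Fewer of the H3K27me3 regions carried H2A.Z here than in the rest of the genome. Of the paired pericentromeric H3K27me3 regions, 58.5% were joined by H2A.Z in pkl-1, 65.78% in clf-28 and 56.42% in pie1-5, where elsewhere the shares were 70.52%, 78.44% and 74.25%. Seen from H2A.Z, the order was mostly the other way: in 5 of the 6 pairs of tables, 34.82% to 46.55% of pericentromeric H2A.Z regions had at least 50% of their length in H3K27me3, against 29.7% to 39.61% elsewhere. In the first pie1-5 tables it was 22.17% against 33.66%. Without H2A.Z, the pkl-1 fall in H3K27me3 had a median of -0.75, and with it -0.68; clf-28 had -1.05 and -0.90. In pie1-5 the order was the other way, -0.03 without H2A.Z and -0.26 with it. Regions elsewhere had the same order in each mutant. Their medians without and with H2A.Z were -0.92 and -0.75 in pkl-1, -1.24 and -0.83 in clf-28 and -0.26 and -0.35 in pie1-5. Neither these shares nor these medians were tested against each other.

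The mitochondrial insertion on chromosome 2 read above WT over its listed regions. Paired pericentromeric regions had medians below WT or, for pkl-1 H2A.Z, near it. Over all listed pericentromeric regions, the median log2 ratio was 2.442 in the second clf-28 H3K27me3 table and 0.01 in both pie1-5 H3K27me3 tables. In the insertion, listed H3K27me3 regions carried 2.34 and 3.723 times the WT RPM per kb in pkl-1 and 2.511 and 10.11 times in clf-28. In pie1-5 they carried 1.968 and 1.979 times. Its H2A.Z regions carried 6.342 and 4.539 times WT in clf-28 and 5.365 and 5.329 times in pie1-5, but 1.207 and 1.193 times in pkl-1, where only 1.4 and 3.2 kb were listed. All 12 libraries were above WT over their listed regions, by ratios from 1.193 to 10.11. Which stretches were listed depends in part on the mutant library, so an excess over WT there follows in part from the listing. The pkl-1 H2A.Z regions had 30.53 and 18.4 RPM per kb in WT, where those of the other H2A.Z tables had 3.577 to 5.199. They are short, so pkl-1 H2A.Z over the rest of the insertion was not measured.

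In the paired fit, chr2:3239001-3509800 carried 28.05 and 44.23 RPM per kb of H3K27me3 in pkl-1 against 11.94 and 11.88 from the WT library (log2 fold change 1.60 ± 0.07, edgeR adjusted p 7.051e-110; 0.0323 with TMM). In pie1-5, chr2:3259601-3509800 carried 23.43 and 23.82 against 11.95 (0.98 ± 0.09, edgeR adjusted p 1.511e-24; 0.07122 with TMM), and in clf-28 the first stretch carried 29.85 and 121.4 (2.67 ± 1.02, 0.9317). H2A.Z over chr2:3388401-3509800 was 24.52 and 19.26 in pie1-5 against 4.562 and 3.326 in WT (2.47 ± 0.45, edgeR adjusted p 0.000165; 0.05466 with TMM). For pkl-1 H3K27me3, the listed insertion regions gave log2 ratios of 1.227 and 1.896 in the 2 libraries. That gap is wider than the SE of 0.07, so this SE and its adjusted p understate the spread between libraries. How many of the insertion reads came from mitochondrial DNA was not tested.

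Beside the insertion, regions on named nuclear genes were also listed. The H2A.Z region on MCM5, a subunit of the replicative helicase, read 23.75 and 36.94 RPM per kb in clf-28 against 28.89 and 25.87 in WT, and 11.56 and 32.39 in pie1-5 against 20.4 and 32.24. The region on ABCC13, an ABC transporter gene, read 9.386 and 10.38 in pie1-5 against 13.11 and 14.65. Mutant and WT libraries overlapped at MCM5, both pie1-5 libraries lay below WT at ABCC13, and none of these regions was called.

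**Figure D4:**
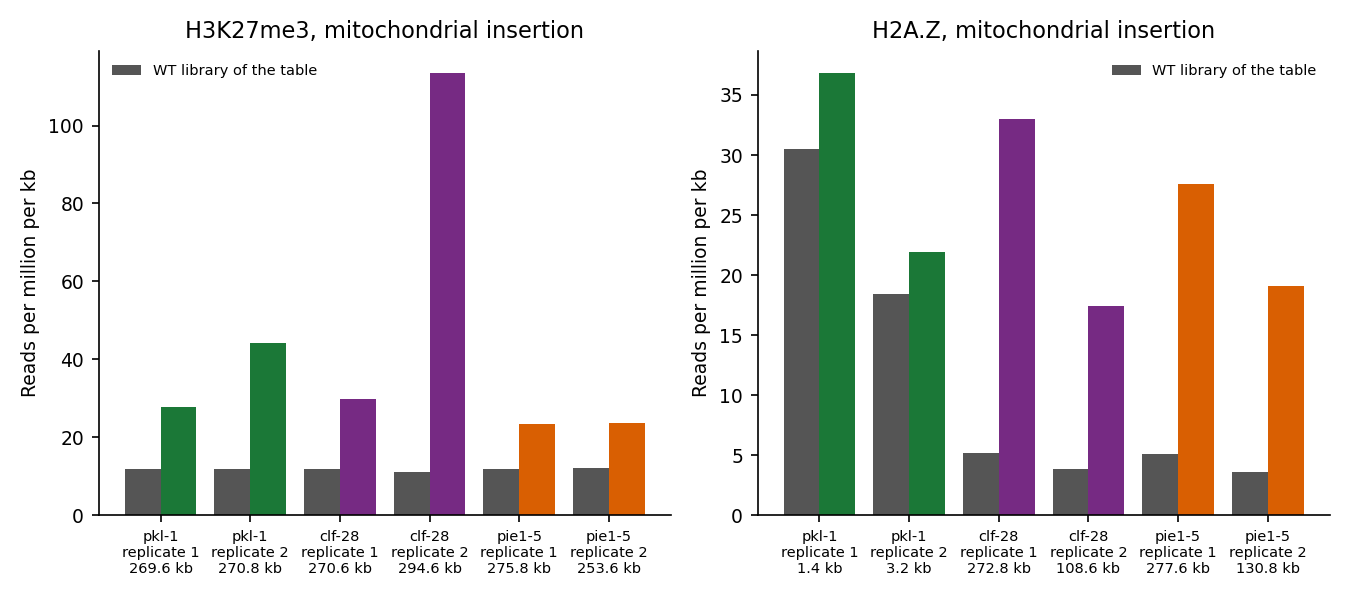
RPM per kb over the regions touching the mitochondrial insertion, mutant beside the WT library of the same table, for each mark, mutant and replicate. Every mutant value lies above its WT value, from 1.193 times WT for H2A.Z in pkl-1 to 10.11 times for H3K27me3 in the second clf-28 library. The pkl-1 H2A.Z bars stand for only 1.4 and 3.2 kb. Which stretches were listed depends in part on the mutant library.

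RNA was measured in separate libraries and gives a readout that did not enter the choice of regions. Of the 2175 genes of the count table in the windows outside the insertion, 806 passed the filter on low counts. In pkl-1, 12 of them were higher and 25 lower, or 4.59% called, against 4.03% of all 20375 genes tested (1.45% higher and 2.58% lower). In clf-28, 4 were higher and 10 lower, or 1.737% against 2.15% (0.918% higher and 1.23% lower). In pie1-5, 30 were higher and 34 lower, or 7.94% against 7.36% (3.8% higher and 3.56% lower). Fewer cells of a type and less RNA per cell cannot be told apart in such whole-shoot samples.

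Among genes covered by pericentromeric H3K27me3, 106 of 426 passed the filter, and 4 were higher and 8 lower in pkl-1, 3 higher and 1 lower in clf-28 and 11 higher and 6 lower in pie1-5, which is 11.32%, 3.774% and 16.04% called. Among genes covered by H2A.Z, 242 of 674 passed, with 6 higher and 12 lower in pkl-1, 3 and 4 in clf-28 and 18 and 14 in pie1-5, or 7.438%, 2.893% and 13.22%. Other settings changed these shares. Under H3K27me3, DESeq2 called 4.938%, 3.086% and 6.79% of 324 genes in pkl-1, clf-28 and pie1-5, where it called 4.29%, 2.62% and 7.14% of all genes. Without the filter edgeR called 6.79%, 3.704% and 8.333% against 6.11%, 4.07% and 8.17% of all. Leaving out 1 library at a time gave 6.087% to 7.895% in pkl-1, 0% to 1.739% in clf-28 and 8.696% to 17.7% in pie1-5. The same fits called 1.97% to 2.85%, 0.808% to 1.59% and 3.58% to 9.64% of all genes. Under H2A.Z, they called 3.089% to 4.651%, 0.386% to 2.72% and 7.336% to 15.95%. There DESeq2 called 5.019%, 2.974% and 7.993%, and edgeR without the filter 6.877%, 3.903% and 10.04%.

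The median log2 fold changes under H3K27me3 were -0.20, -0.06 and 0.22, and those of all genes tested lay within 0.01 of 0. The pkl-1 median turned to 0.69 without the filter, to 0.70 with DESeq2 and to 0.06 without WT 2. The clf-28 and pie1-5 medians were 0 without the filter and with DESeq2. The second pkl-1 RNA library had reads on 1292 window genes, where every other library had 883 to 965. Its part in the pkl-1 medians and counts without the filter was not tested. In pkl-1, H3K27me3 was under WT in both tables on 3 of the 4 genes whose RNA rose and on 6 of the 8 whose RNA fell. Across all paired pericentromeric regions, 88.02% were under WT in both pkl-1 tables.

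The gene with the smallest adjusted p in pkl-1 was AT4G02825, annotated as a miscellaneous RNA on chromosome 4. Its transcript reached 224.7, 186.0 and 209.9 CPM in the pkl-1 libraries, where WT had 10.5, 8.493 and 7.691 CPM, a 23.23-fold rise (log2 fold change 4.54 ± 0.19, edgeR adjusted p 1.697e-09). In clf-28 it measured 14.52, 18.14 and 16.29 CPM (0.87 ± 0.17, edgeR adjusted p 0.01301, lost without WT 2, WT 3 or clf-28 2), and in pie1-5 3.61, 3.949 and 4.193 CPM (-1.18 ± 0.18, 0.001138). The 3 libraries of each mutant lay wholly above WT in pkl-1 and clf-28, and wholly below it in pie1-5.

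H3K27me3 on this gene, at chr4:2180201-2182200, was lower in every mutant library than the 14.72 RPM per kb of WT: 5.721 and 6.697 in pkl-1, 8.077 and 8.347 in clf-28 and 7.831 and 5.681 in pie1-5. The change was called in pkl-1 (log2 fold change -1.25 ± 0.48, edgeR adjusted p 0.02231). H2A.Z over chr4:2180401-2181800 was 8.8 and 10.54 in pkl-1, 10.55 and 10.97 in clf-28 and 6.894 and 11.36 in pie1-5, against 16.96 and 15.97 in WT. Every mutant library was thus below WT for both marks, while the RNA rose in pkl-1 and clf-28 and fell in pie1-5.

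MSRB5, which encodes a methionine sulfoxide reductase, was also called in all 3 mutants. It measured 13.8, 13.93 and 12.92 CPM in WT, 31.45, 26.74 and 36.77 in pkl-1, 27.78, 27.39 and 24.35 in clf-28 and 43.76, 23.25 and 26.39 in pie1-5. All 9 mutant libraries exceeded all 3 WT libraries (log2 fold changes 1.22, 0.97 and 1.2; edgeR adjusted p 0.003788, 0.02595 and 0.003887), although the clf-28 call was lost on leaving out any 1 of its 6 libraries. Its H3K27me3 ratios to WT were 0.618 and 0.3981 in pkl-1, 0.5991 and 0.3891 in clf-28 and 0.4343 and 0.8076 in pie1-5, none of them called.

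Transcripts of PR1 and LURP1, both induced in defence against pathogens, fell in pkl-1. PR1, a marker of the salicylic acid response, measured 3.092, 14.04 and 2.214 CPM in pkl-1 against 60.57, 70.63 and 34.63 in WT (log2 fold change -3.08, edgeR adjusted p 0.004296). Its H3K27me3 region was lower as well, with ratios of 0.5336 and 0.4548 (-1.02, edgeR adjusted p 0.0008906). LURP1, induced by the downy mildew pathogen, measured 2.032, 2.639 and 4.505 CPM in pkl-1, 103.1, 155.4 and 119.5 in pie1-5 and 35.37, 34.37 and 15.03 in WT (-3.21, adjusted p 0.0001748, and 2.16, adjusted p 0.002031, by edgeR).

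LURP1 therefore lay below WT in all pkl-1 libraries and above it in all pie1-5 libraries, with H3K27me3 ratios of 1.015 and 0.8028 in pkl-1 and 0.8454 and 1.381 in pie1-5. AGP5, an arabinogalactan protein gene, fell from 30.34, 20.35 and 22.19 CPM to 1.678, 3.77 and 2.1 in pkl-1 (log2 fold change -3.25, edgeR adjusted p 2.399e-05). Its marks hardly moved, with H3K27me3 ratios of 0.9988 and 1.031 and H2A.Z ratios of 0.8089 and 1.134. AT1G35710 fell in pkl-1 (-3.64, edgeR adjusted p 0.0001477) and in clf-28 (-2.23, 0.006714, lost without clf-28 2).

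Among genes of the windows that fell in clf-28, AT4G04223 had the smallest adjusted p. It is a non-coding RNA at 5.563, 3.38 and 2.564 CPM against 13.88, 22.14 and 14.77 in WT (log2 fold change -2.14, edgeR adjusted p 0.0005617). RAP2.6, an ERF-family transcription factor gene, measured 1.294, 2.436 and 1.656 CPM in clf-28, 0.747, 2.038 and 1.466 in pie1-5 and 9.114, 18.44 and 57.53 in WT. The WT libraries of RAP2.6 spread widely, and its call in clf-28 (-4.00, edgeR adjusted p 0.009307) was lost without WT 3, clf-28 1 or clf-28 3, whereas the pie1-5 call (-4.32, 0.00305) was not lost on leaving out any library. AT1G47395 in the wide clf-28 fall on chromosome 1 measured 2.135, 2.635 and 2.029 CPM against 0, 0.09265 and 0.4395 (3.73, edgeR adjusted p 0.03393, lost on leaving out 5 of the 6 libraries in turn).

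In pie1-5 the genes with the smallest adjusted p among those that rose included EXO, a brassinosteroid-responsive growth gene, and APR1, an enzyme of sulfate assimilation. EXO measured 23.44, 69.36 and 86.05 CPM against 8.814, 11.18 and 9.537 in WT (log2 fold change 2.60, edgeR adjusted p 0.0004877). APR1 measured 97.88, 32.1 and 37.23 against 8.964, 10.5 and 11.73 (2.42, edgeR adjusted p 0.000568). Its counts could include reads of the overlapping gene AT4G04614. Both genes rose in every pie1-5 library, by amounts that differed up to several fold between libraries.

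KNAT1, under the wide H3K27me3 stretch on chromosome 4, rose in pie1-5 to between 8.693 and 13.17 CPM from 4.688, 5.806 and 4.703 (log2 fold change 1.13, edgeR adjusted p 0.008835), where its H3K27me3 ratios were 0.98 and 0.7739. QQS, an orphan gene linked to starch content, fell to 0.5602, 0.06369 and 0.5455 CPM in pie1-5 from 16.58, 1.853 and 6.197 (-4.38, edgeR adjusted p 0.002797). BZO2H3, a bZIP transcription factor gene, fell to 4.637, 4.267 and 5.42 CPM from 15.6, 12.85 and 11.08 (-1.47, edgeR adjusted p 0.0004543). QQS and BZO2H3 lay in no paired region of either mark in pie1-5.

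**Figure D5:**
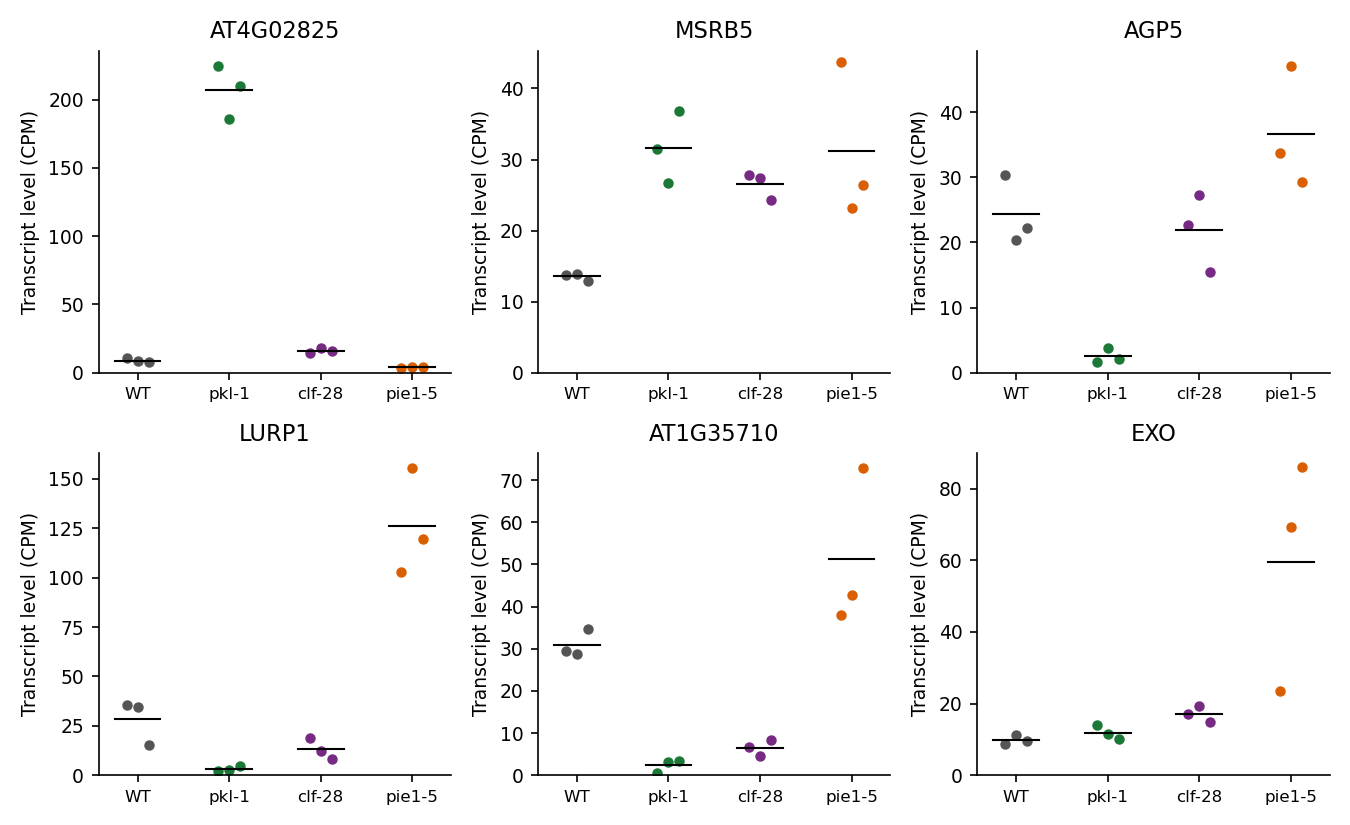
CPM on a linear axis in each of the 3 RNA-seq libraries per genotype for genes of the pericentromeric windows named in the text. AT4G02825 stands at 186.0 to 224.7 CPM in pkl-1 against 7.691 to 10.5 in WT, and LURP1 lies below WT in pkl-1 and above it in pie1-5.

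Of the 147 genes in the insertion, 126 passed the filter; 0 were called in pkl-1 and in clf-28, and 5 were called higher in pie1-5 (3.97%, where 3.8% of all genes were called higher). Unadjusted edgeR p-values under 0.05 numbered 5 in pkl-1 and 8 in clf-28, or 3.968% and 6.349% against 17.3% and 13.47% of all genes. DESeq2 called 0 in both. In pie1-5 DESeq2 called 12 of 143 higher, or 8.392% where 3.94% of all genes were. In pie1-5, 107 of the 126 had a positive log2 fold change, with a median of 0.37 against 0.01 over all genes tested. Every pie1-5 library lay above every WT library for 44 insertion genes, and below for 1. These counts were not taken over all genes, so whether they are unusual was not tested. AT2G07722 measured 17.12, 10.95 and 12.72 CPM in pie1-5 against 3.451, 5.096 and 4.571 (log2 fold change 1.64, edgeR adjusted p 0.004143).

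The other genes called there were AT2G00520, ABCI4, AT2G00500 and ABCI5, with log2 fold changes of 0.59 to 1.31, each of which lost its call on leaving out at least 1 library. Genes of the mitochondrial chromosome took 6.70 to 7.09% of the reads in pie1-5 and 5.18 to 5.86% in WT. RNA from the mitochondria and from the insertion cannot be told apart by these counts.

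Of 21 listed genes linked to heterochromatin or its marks, edgeR called 0 in pkl-1, 0 in clf-28 and 3 in pie1-5. All 3 were lower (14.29%, where 3.56% of all genes were called lower). DESeq2 called the same numbers. An unadjusted edgeR p under 0.05 was reached by 0 in pkl-1 and 2 in clf-28 (0% and 9.524%, against 17.3% and 13.47% of all genes). The 21 genes had median log2 fold changes of 0.15, -0.05 and 0.14. AT1G06760, listed there as a linker histone gene, measured 42.95, 42.8 and 42.24 CPM in pie1-5 against 75.39, 75.02 and 63.64 (log2 fold change -0.74, edgeR adjusted p 0.01104). AT2G30620, listed likewise, measured 48.49, 53.88 and 42.55 against 99.13, 90.46 and 80.3 (-0.90, edgeR adjusted p 0.005433). SUVH6, a histone H3 lysine 9 methyltransferase gene, fell by 1.28 on the log2 scale (edgeR adjusted p 0.02378, lost without WT 1 among others).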

How the data were processed

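Read counts, RPM, fold and p-value or FDR columns per region were deposited by the authors in 12 tables, each setting 1 mutant ChIP library against 1 WT library; gene read counts were deposited for 12 RNA-seq libraries. Per the submitters' processing notes, Trimmomatic, Bowtie2, SICER, edgeR, bedtools and deepTools were used with TAIR10; no version or setting is recorded there. The fold or ratio values and the authors' p-values and FDR in the deposited tables were used only where the text says so. Library totals were recovered from each deposited count and its RPM. Region starts were counted from 0 in the files and are given from 1.

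Paired regions were tested with edgeR 4.0.16 (quasi-likelihood, R 4.3.3), with library totals times region width as offsets, no minimum count and Benjamini-Hochberg adjustment over all pairs (called under 0.05). The shared H3K27me3 WT library counted as 1 sample. RNA counts were tested with edgeR on 12 libraries, with TMM and filterByExpr. Alternatives were TMM or no TMM, DESeq2 1.42.0, no filter, an overlap of at least 80% of the longer region, joint fits, the authors' FDR, a replicate block and leaving out each library. The main edgeR fit of each paired comparison was tested on simulated counts with 1 fixed spread between libraries. The main RNA fit was tested on simulated counts for pkl-1 only, and the alternatives were not tested in this way.

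The windows, gene lists and tests were chosen with earlier results of these data known. Named regions are, per mark and mutant, the 3 largest rises and falls among pairs whose mutant or WT library held 100 reads or more in both replicates, the 3 widest and the 3 with the highest WT RPM per kb per mark, and paired regions touching the insertion. Named genes are those in named regions, per mutant the 5 called genes of smallest adjusted p per direction in the windows and in the insertion, the mutated genes and called heterochromatin genes; a few of each are described, and PR1 was added after its values were seen. Gene names and placement come from RefSeq (TAIR10.1), which held 32909 of the 33341 counted genes; none of its coordinates are printed. The labels list 44 samples; the anti-H3 and input ones were not used here. No promoter sequence was used here.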

Additional observations from a re-analysis of the deposited data

How the results depend on the processing

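TMM shifted 5 of the 6 pericentromeric medians by over 0.1 on the log2 scale, to 0.10 for pkl-1, -0.04 for clf-28 and 0.18 for pie1-5 H3K27me3 and to -0.01 for clf-28 and 0.02 for pie1-5 H2A.Z. It turned the sign in pkl-1 and pie1-5 H3K27me3 and in pie1-5 H2A.Z, and moved pkl-1 H2A.Z from -0.03 to -0.04. For pkl-1 H3K27me3, against 2 higher and 139 lower, TMM and the joint fit called 0 and 0. DESeq2 called 1 higher and 127 lower, and the 80% overlap 1 and 141 of 315 pairs. The authors' FDR called 7 and 295 (6 and 275 under 0.001). Of all 5337 pairs, TMM called 10 and 0, DESeq2 9 and 2525, and the authors' FDR 40 and 4763 (28 and 4558). The joint fit called 0 of all 5021 regions, and the 80% overlap 6 higher and 2726 lower of all 4910 pairs. For clf-28 H3K27me3, TMM called 7 higher and the authors' FDR 28 and 255 (27 and 242). Of all 5441 pairs, TMM called 23 higher and the authors' FDR 249 and 3757 (190 and 3519). For pie1-5 H3K27me3, DESeq2 called 1 higher and the authors' FDR 51 and 117 (46 and 101). Of all 5180 pairs, DESeq2 called 2 higher and the authors' FDR 210 and 2648 (162 and 2259). For pkl-1 H2A.Z, DESeq2 called 2 higher and the 80% overlap 1 higher. The replicate block called 5 higher and 6 lower, and the authors' FDR 31 and 77 (18 and 35). Of all 9861 pairs, DESeq2 called 10 higher, the block 73 and 56, and the authors' FDR 746 and 936 (274 and 378). The 80% overlap called 5 higher of all 6617 pairs. For clf-28 H2A.Z, DESeq2 called 1 higher, the replicate block 1 and 1, and the authors' FDR 2 and 437 (1 and 317). Of all 14539 pairs, DESeq2 called 2 higher, the block 4 and 6, and the authors' FDR 29 and 7338 (18 and 5476). For pie1-5 H2A.Z, against 2 higher, the 80% overlap and the joint fit called 0 higher, and the authors' FDR 5 and 777 (5 and 718). Genome-wide, the 80% overlap called 0 higher of 8777 and the joint fit 1 of 9623. The authors' FDR gave 12 and 12767 of 14570 (10 and 11655). With TMM the H2A.Z regions in pie1-5 at ABCC13 and MCM5 turned from -0.49 to 0.34 and from -0.27 to 0.41.

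Leaving out 1 library at a time, in the joint fit over merged regions where a genotype left with 1 library is assumed to vary like the others, gave 0 to 2 higher and 0 to 36 lower for pkl-1 H3K27me3, 0 to 6 higher and 0 to 181 lower for clf-28 (181 without clf-28 1, 20 without clf-28 2), and 0 to 0 higher and 0 to 471 lower for pie1-5 H2A.Z (471 without pie1-5 2, 0 without pie1-5 1). These counts are out of 339 pericentromeric H3K27me3 regions and 525 H2A.Z regions, and the falls were not confined to the windows. Without clf-28 1, the clf-28 H3K27me3 median was -1.59 in the windows and -1.79 over all 5021 regions. Without clf-28 2 it was -0.46 and -0.39. For pie1-5 H2A.Z it was -1.12 in the windows and -1.12 over all 9623 regions without pie1-5 2. Without pie1-5 1 it was -0.42 and -0.37. The only H3K27me3 WT library cannot be left out. For RNA in the windows, leaving out 1 library called 5 to 10 genes higher and 11 to 17 lower in pkl-1. It called 0 to 2 and 4 to 9 in clf-28, and 15 to 50 and 19 to 42 in pie1-5, with 50 without pie1-5 1. The shares called were 2.02% to 2.87%, 0.595% to 1.31% and 4.16% to 10.99%. All genes gave 1.97% to 2.85%, 0.808% to 1.59% and 3.58% to 9.64%. No filter gave 35 higher and 46 lower in pkl-1, 14 and 28 in clf-28 and 53 and 52 in pie1-5. That was 5.19%, 2.69% and 6.72% called, against 6.11%, 4.07% and 8.17% of all genes. Library totals gave 7 higher in pkl-1, with 4.71% called in either direction against 3.85% of all. DESeq2 gave 26 higher in pkl-1 (1.665%, against 1.757% of all) and 10 and 18 in clf-28 (1.79% called, against 2.62%).

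The labels give no meaning to the replicate numbers. Same-numbered H2A.Z libraries differed alike between replicates, with correlations of 0.277 to 0.57 over the 6 pairs of genotypes, a hint from the data with 2 pairs per comparison. Same-numbered RNA libraries correlated by -0.058 to 0.109 in their deviations from the group means. The replicate block called 12 window genes higher and 24 lower in pkl-1, 4 and 8 in clf-28 and 30 and 35 in pie1-5. That was 4.47%, 1.49% and 8.06% called, against 3.99%, 1.89% and 7.41% of all genes. No paired analysis was possible for H3K27me3 because both replicates share 1 WT library. Where calls changed, the cause was not tested.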

Other observations

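AT4G09200 and AT4G09310, in separate pericentromeric H2A.Z regions, have the same CPM in every library (6.526, 6.795 and 6.812 in WT and 1.681, 3.216 and 2.83 in pie1-5), so their RNA values are 1 measurement.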
